A study of Mus musculus with 9 samples.

Results

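The 56 genes described here run the cell division cycle. They were chosen by gene symbol from textbook roles, with earlier results of these data known. For each gene the probe set with the highest mean signal was taken. Of these, 52 had a named probe set among the 19505 named genes of the arrays, and each of the 52 had a single one. *Mcm7*, *Ccnd1*, *Foxm1* and *Ccnb1* were not analysed here because no probe set used here carried their names.

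Cells leave G1 when D-type cyclins with CDK4 or CDK6, and then cyclin E with CDK2, phosphorylate RB-family pocket proteins and release E2F factors, which drive the genes of DNA replication. The MCM helicase is loaded on origins by CDC6 and CDT1, and the enzymes of nucleotide synthesis supply the precursors. Genes of mitosis are transcribed later, under the MuvB complex with B-MYB and FOXM1, and encode cyclin B and its kinase, the spindle, the kinetochores and the checkpoint that delays chromosome separation. Inhibitors of the INK4 family (*Cdkn2a*, *Cdkn2b*, *Cdkn2c*) and of the CIP/KIP family (*Cdkn1b*, *Cdkn1c*) hold the kinases in check. Many tumor cells have lost one or more of these brakes.

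RNA came from 4 transduced lines of Pan02, a mouse pancreatic ductal adenocarcinoma cell line, each cultured for 24 hours with low-dose H2O2 or in normal medium, with 1 Clariom S array per line and medium. Pan02OE carried a lentiviral open reading frame of NLRX1, a mitochondrial NOD-like receptor, and Pan02OE-CTL a control open reading frame. Pan02KD carried a short hairpin RNA against *Nlrx1*, and Pan02KD-CTL a scrambled hairpin. All lines were selected with puromycin, each is a single transduced population, and the 2 arrays of a line are that population in the 2 media, so that p-values measure only the spread between these arrays.

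The target of the vectors, *Nlrx1*, read 17.31 and 17.10 log2 signal in Pan02OE (H2O2, then normal medium, the order used for every pair of values below), against 6.90 and 6.89 in Pan02OE-CTL. In the arrays labelled Pan02KD *Nlrx1* read 6.56 and 6.68, against 6.41 and 5.96 in Pan02KD-CTL, so it was not lower there (difference 0.44 ± 0.18 SE, adjusted p = 0.15), and all of these values lie within what the 23 background probe sets gave (3.40 to 7.48). Signal at this level gives no measure of a knockdown. The paper checked NLRX1 protein in the lines by western blot and reports that the hairpin used knocked it down. Since the arrays do not show this, the 2 arrays are called labelled Pan02KD throughout. Defining markers of leukocytes (0 of 6), endothelium (0 of 4) and acinar cells (0 of 4) were above that range in no line, whereas 5 of 6 ductal epithelial markers were above it in at least 1 line, with *Epcam* the exception. Of 7 fibroblast and mesenchymal markers 3 were above it in at least 1 line, among them *Dcn* in labelled Pan02KD only (10.74 and 10.20, against 4.89 and 4.98 in Pan02KD-CTL).

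Promoters of a few members are shown first, because genes of mitosis and of DNA replication differ in the short elements near their start. The cell cycle genes homology region (CHR) binds the MuvB complex, the CCAAT box binds NF-Y, and E2F sites bind E2F with its DP partner. RefSeq promoters of build GRCm38.p6, from 250 bases before to 50 bases after the annotated start, were at hand for 44 of the 52 measured members (48 promoters). The strongest mitotic decreases in Pan02OE, *Ccnb2* (chr9:70421505-70421804, minus strand) and *Mki67* (chr7:135716330-135716629, minus strand), and the strongest decrease of a helicase subunit, *Mcm6* (chr1:128359656-128359955, minus strand), are printed 5′ to 3′. Capitals mark every match on either strand to 1 of the 3 motifs searched. For CHR the usual spelling TTTGAA was searched together with a second one known from other cell cycle promoters, TTCGAA. The box of NF-Y was searched by the letters of its name. Spellings of E2F were TTTGGCGC, TTTCCCGC, TTTGCCGC and TTTCGCGC.
Ccnb2: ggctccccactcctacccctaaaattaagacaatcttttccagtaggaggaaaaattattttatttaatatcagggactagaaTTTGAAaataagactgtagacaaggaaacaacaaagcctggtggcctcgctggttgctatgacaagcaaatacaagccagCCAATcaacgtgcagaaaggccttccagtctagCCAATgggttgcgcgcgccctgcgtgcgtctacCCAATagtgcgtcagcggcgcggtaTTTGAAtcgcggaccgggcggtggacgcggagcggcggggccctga
Mki67: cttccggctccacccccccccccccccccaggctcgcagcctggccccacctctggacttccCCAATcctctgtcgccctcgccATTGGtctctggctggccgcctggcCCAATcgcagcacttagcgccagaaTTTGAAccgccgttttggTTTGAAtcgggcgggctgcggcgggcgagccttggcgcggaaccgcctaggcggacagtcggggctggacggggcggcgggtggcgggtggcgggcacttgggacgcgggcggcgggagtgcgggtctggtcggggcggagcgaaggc
Mcm6: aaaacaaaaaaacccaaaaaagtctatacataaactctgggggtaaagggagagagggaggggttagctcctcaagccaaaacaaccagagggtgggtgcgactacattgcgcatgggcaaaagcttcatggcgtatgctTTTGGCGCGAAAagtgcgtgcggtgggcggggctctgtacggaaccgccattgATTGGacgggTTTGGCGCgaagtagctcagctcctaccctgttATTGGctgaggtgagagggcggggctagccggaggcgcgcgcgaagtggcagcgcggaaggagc
The *Ccnb2* promoter held 2 CHR and 3 CCAAT matches and the *Mki67* promoter the same numbers, both with 0 E2F matches. In *Ccnb2* one CHR match lay 4 bases past the annotated start, with the 3 CCAAT boxes at 21, 54 and 87 bases before it, each counted to the first base of the match. The *Mcm6* promoter held 0 CHR, 2 CCAAT and 3 E2F matches, the first pair of which overlap each other.

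CHR letters stood in 15 of 19 promoters of mitotic members (78.9%), as compared to 4 of 29 promoters of the other members (13.8%) and 19.2% of all 32851 promoters of the same length. CHR and CCAAT stood together in 78.9% of the mitotic and 10.3% of the other promoters, and in 7.52% of all promoters. E2F letters stood in 1 of the 19 mitotic promoters (5.26%) and in 11 of the 29 others (37.9%), against 2.26% of all promoters. The members that fell in Pan02OE held CHR letters about as often as the rest, in 42.1% of their 19 promoters, as compared to 37.9% of the 29 promoters of the remaining measured members. Promoters of *E2f1*, *Tyms* and *Cdk6* held none of the letters within this window. *Aurkb* had no entry in the promoter table.

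Signal in these cultures was high for most of the cycle. In all 4 lines 46 of the 52 members had a line mean above the brightest background probe set (88.5%), as compared to 39.4% of all genes. *Cdc6*, which loads the helicase, and *Cenpf*, a kinetochore protein, passed it in 1 line each. *E2f1* and the inhibitors *Cdkn1c*, *Cdkn2a* and *Cdkn2b* passed it in none. *Cdkn2a*, which encodes p16 and ARF, read 3.36 and 3.39 in Pan02OE, 3.70 and 3.92 in Pan02OE-CTL, 3.85 and 3.64 in labelled Pan02KD and 3.62 and 3.29 in Pan02KD-CTL. *Cdkn2b*, which encodes p15, read 5.50 and 5.45, 5.57 and 5.53, 5.55 and 5.66, and 5.59 and 5.80 in the same order of lines. Both inhibitors were thus below the brightest background probe set on all 8 arrays, and no difference between lines is read from them.

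**Figure D1:**
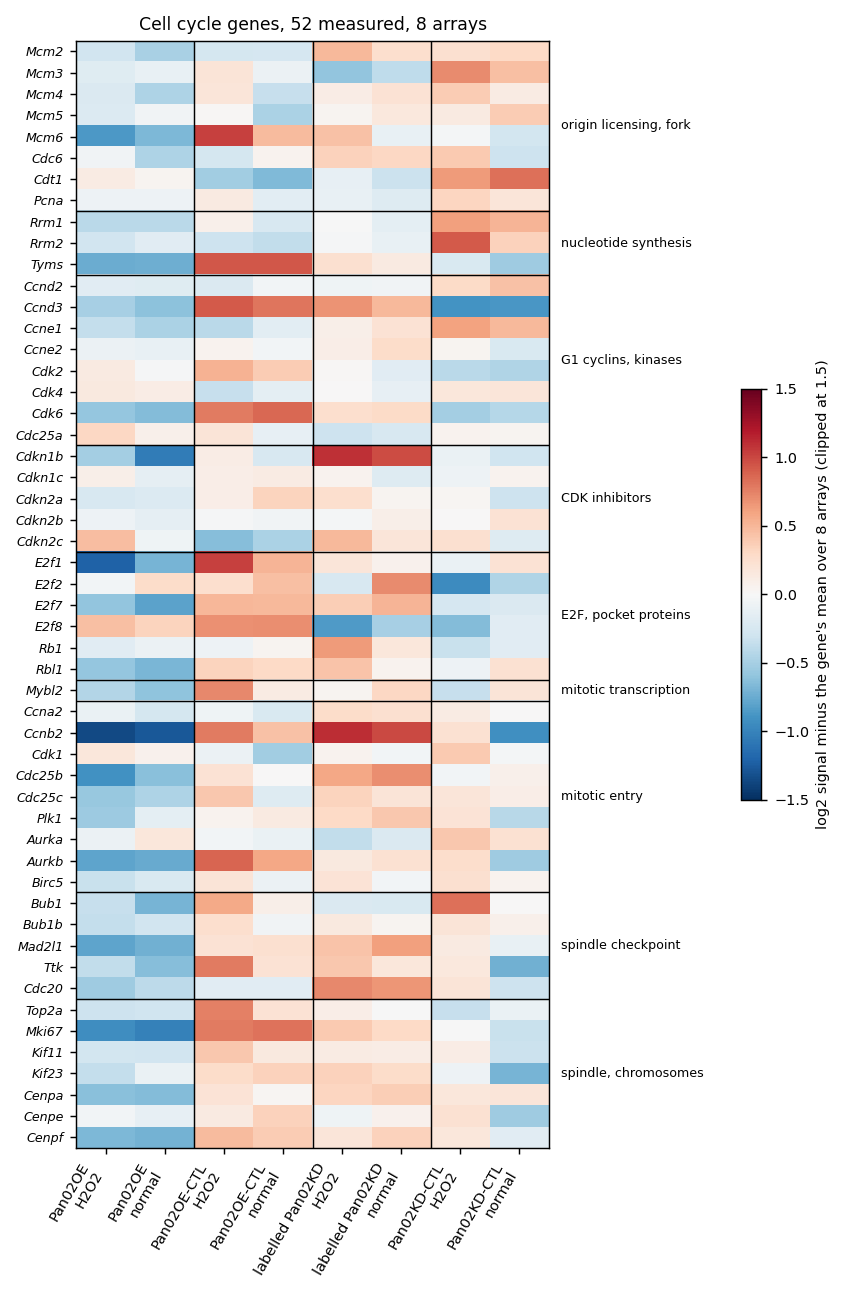
Log2 signal of the 52 measured members on the 8 arrays, as the difference from each gene's own mean (color scale from -1.5 to 1.5); columns are the 4 lines with the H2O2 array left of the normal array, rows are genes grouped by role. The 2 Pan02OE columns are blue for most mitotic genes, and Pan02OE had the lowest mean of the 4 lines in 34 of the 52 members.

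The comparison of Pan02OE with Pan02OE-CTL asks how the cycle genes stood in cells with excess NLRX1. Cyclin B2, Ki-67, Aurora B, thymidylate synthase, cyclin D3 and CDK6 were among those lower in Pan02OE, whereas the kinases *Cdk1*, *Cdk2* and *Cdk4* did not pass the test. Of the 52 members 19 fell and 2 rose at an adjusted p under 0.05, as compared to 9.49% of all genes that fell and 7.02% that rose (16.5% together). Among the 8241 genes whose mean lies above the background probe sets, called bright here, 17.2% fell and 13.2% rose. The median difference of the members was -0.37 on the log2 scale, against 0.04 over all genes. Both Pan02OE arrays lay below both Pan02OE-CTL arrays in 37 of 52 members (71.2%), as compared to 26.1% of all genes and 38.0% of the bright ones. In RNA of whole cultures, fewer dividing cells and less of these transcripts per dividing cell cannot be told apart. Ductal epithelial markers moved in the other direction in the same arrays (5 of 6 rose, median difference 1.39), and their part in the result was not tested.

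Among the 22 measured members with a role in mitosis, 11 fell and 0 rose in Pan02OE. *Ccnb2*, the B-type cyclin that activates CDK1, read 9.25 and 9.33 in Pan02OE, against 11.39 and 11.05 in Pan02OE-CTL. The groups did not overlap, and the difference of -1.93 ± 0.26 (SE, 2 arrays a line, adjusted p = 0.001) is a 3.81-fold lower signal. *Mki67*, the perichromosomal protein used as a proliferation marker, read 13.15 and 13.07 in Pan02OE, against 14.86 and 14.89 in Pan02OE-CTL, a difference of -1.76 ± 0.16 (adjusted p = 9.4e-05). The arrays of a line lay close together for this gene, and the lines far apart. *Aurkb*, the kinase of the chromosomal passenger complex, read 11.28 and 11.31 in Pan02OE, against 12.95 and 12.66 in Pan02OE-CTL (difference -1.51 ± 0.22, adjusted p = 0.0015).

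Of 5 measured genes of the spindle checkpoint 3 fell, and the differences of the other 2 were below 0. The kinase *Ttk*, which starts checkpoint signaling at kinetochores, read 8.03 and 7.76 in Pan02OE, against 9.19 and 8.62 in Pan02OE-CTL (difference -1.01 ± 0.19, adjusted p = 0.0058). *Bub1*, its partner kinase, read 10.97 and 10.61 in Pan02OE, against 11.88 and 11.40 in Pan02OE-CTL (difference -0.85 ± 0.20, adjusted p = 0.016). *Mad2l1*, which holds CDC20 inactive, differed by -0.98 ± 0.16 (adjusted p = 0.003). *Bub1b* and *Cdc20*, the checkpoint protein BUBR1 and the activator of the anaphase-promoting complex, differed by -0.42 and -0.29 and did not pass the test.

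All 7 measured spindle and chromosome genes had differences below 0, and 4 of them fell. Besides *Mki67* these were *Cenpf* (-1.12), *Top2a*, the topoisomerase that untangles sister chromatids (-0.79), and *Cenpa*, the centromeric histone (-0.76). *Cenpf* read 6.43 and 6.40 in Pan02OE, against 7.58 and 7.49 in Pan02OE-CTL, and since both Pan02OE values are in the background range its difference is no measured fold. The motors *Kif11* and *Kif23* and the kinetochore motor *Cenpe* differed by -0.56, -0.54 and -0.32 without passing the test. Of 9 genes of mitotic entry, *Cdc25b*, a phosphatase that activates CDK1 (-0.88, adjusted p = 0.0062), fell together with *Ccnb2* and *Aurkb*. *Mybl2*, which encodes the mitotic transcription factor B-MYB, fell by 0.95 ± 0.25 (adjusted p = 0.029).

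*Cdk1*, the kinase of mitosis itself, did not share this direction. It read 12.03 and 11.92 in Pan02OE, against 11.76 and 11.33 in Pan02OE-CTL, with both Pan02OE arrays above both of the others (difference 0.43 ± 0.16, adjusted p = 0.11). The kinase *Aurka* (0.11) and the S-phase and G2 cyclin *Ccna2* (-0.03) did not pass the test. Neither did *Birc5*, the survivin of the passenger complex (-0.34), *Plk1*, the polo-like kinase (-0.44), or *Cdc25c*, a CDK1 phosphatase (-0.61, adjusted p = 0.055). Mitotic entry genes thus fell in 3 of 9 cases.

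DNA replication genes gave a mixed picture. *Mcm6*, a subunit of the MCM helicase, read 8.39 and 8.58 in Pan02OE, against 10.28 and 9.72 in Pan02OE-CTL (difference -1.52 ± 0.20, adjusted p = 0.00095). The other measured subunits, *Mcm2*, *Mcm3*, *Mcm4* and *Mcm5*, differed by between -0.26 and 0.10 and none passed the test. *Cdt1*, which brings the helicase to origins, read 12.27 and 12.19 in Pan02OE, against 11.62 and 11.48 in Pan02OE-CTL, and rose by 0.68 ± 0.16 (adjusted p = 0.018). *Pcna*, the sliding clamp, read 15.00 and 15.00 in Pan02OE, against 15.21 and 14.91 in Pan02OE-CTL, and the Pan02OE values lay between those of the control line. *Tyms*, thymidylate synthase, read 10.20 and 10.20 in Pan02OE, against 11.87 and 11.87 in Pan02OE-CTL (difference -1.67 ± 0.16, adjusted p = 0.00012). The ribonucleotide reductase subunits *Rrm1* and *Rrm2* differed by -0.32 and 0.11 and did not pass the test.

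A cyclin and its kinase of G1 both fell in Pan02OE. *Ccnd3*, cyclin D3, read 12.51 and 12.39 in Pan02OE, against 13.92 and 13.81 in Pan02OE-CTL (difference -1.42 ± 0.15, adjusted p = 0.00024). *Cdk6*, its kinase, read 14.72 and 14.65 in Pan02OE, against 16.09 and 16.16 in Pan02OE-CTL (difference -1.44 ± 0.15, adjusted p = 0.00021). The other 6 measured G1 cyclins, kinases and phosphatases, *Ccnd2*, *Ccne1*, *Ccne2*, *Cdk2*, *Cdk4* and *Cdc25a*, differed by -0.40 to 0.37 and did not pass the test. *E2f7*, a repressing E2F, read 8.83 and 8.62 in Pan02OE, against 9.91 and 9.90 in Pan02OE-CTL (difference -1.18 ± 0.16, adjusted p = 0.0009). The pocket protein *Rbl1*, p107, fell by 0.94 ± 0.18 (adjusted p = 0.0071), whereas *Rb1* itself differed by -0.11. *E2f1*, the activating E2F, read 5.01 and 5.52 in Pan02OE, against 7.25 and 6.73 in Pan02OE-CTL, and although it passed the test (adjusted p = 0.0011) no fold is given because all 8 of its values are in the background range.

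The inhibitors were split. *Cdkn1b*, which encodes p27, read 11.52 and 10.98 in Pan02OE, against 12.14 and 11.79 in Pan02OE-CTL (difference -0.71 ± 0.16, adjusted p = 0.016). *Cdkn2c*, which encodes the INK4 inhibitor p18, rose by 0.76 ± 0.19 (adjusted p = 0.023). Of the 21 calls 11 held under every alternative run for them (17 for *E2f1*, which a filter on dim genes removed, and 18 for the others), those of *Aurkb*, *Ccnb2*, *Ccnd3*, *Cdk6*, *Cenpf*, *E2f1*, *E2f7*, *Mad2l1*, *Mcm6*, *Mki67* and *Tyms*. The filter that removed *E2f1* kept *Cenpf* only through Pan02OE-CTL, where it is high, so that setting gives its call no support. The other 10 calls were each lost when at least 1 array was left out, that of *Mybl2* also after quantile normalization and that of *Bub1* without the medium term. The count of 21 dropped to 13 without the Pan02OE array in H2O2 and to 11 without the Pan02OE-CTL array in H2O2, and neither *Cdt1* nor *Cdkn2c* was then among the calls.

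**Figure D2:**
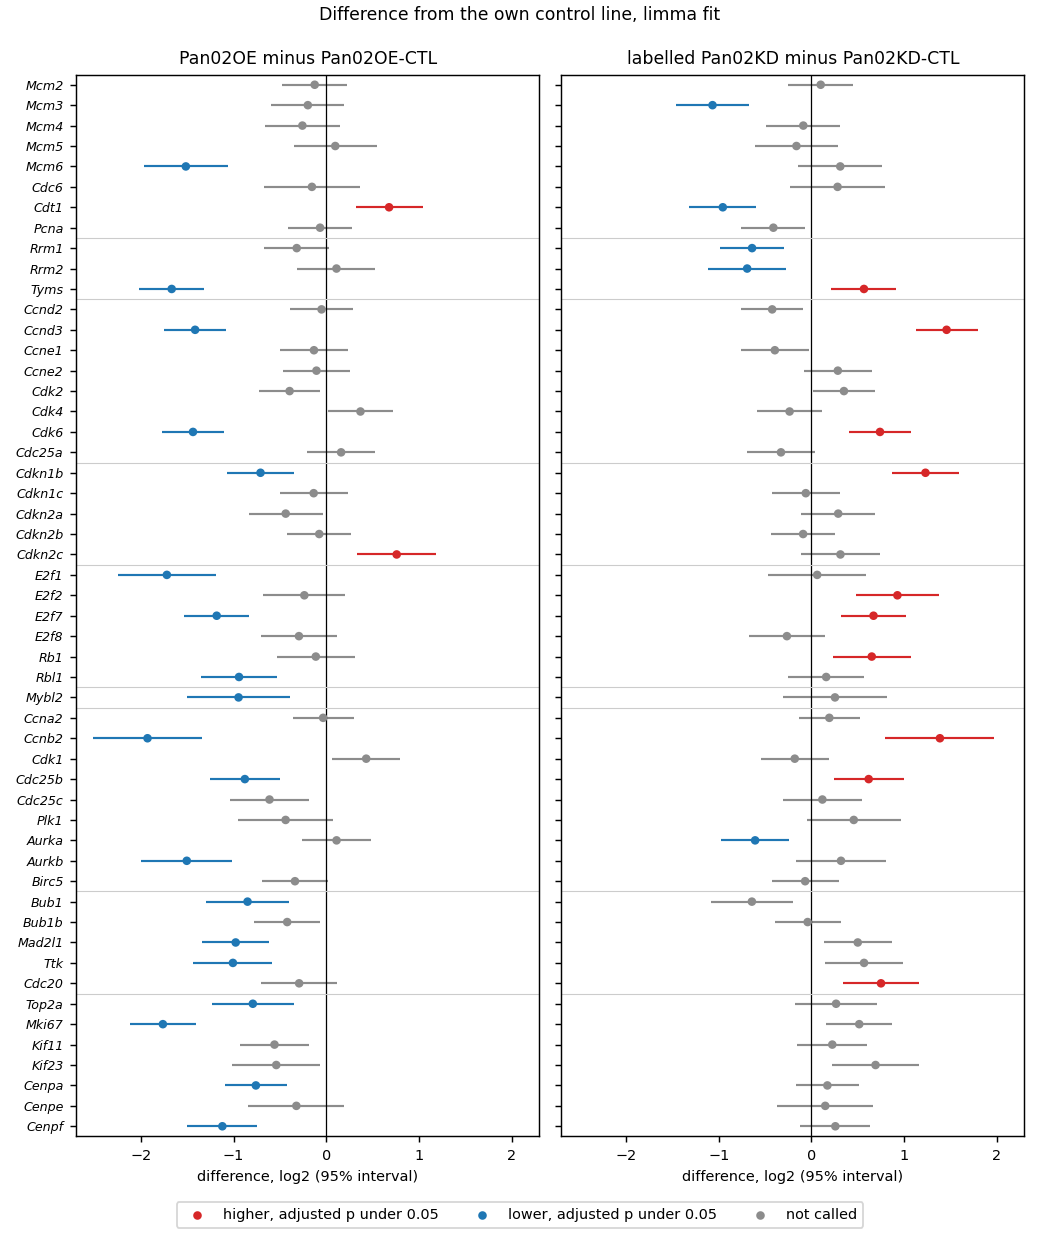
Difference of each measured member between a modified line and its own control line, in log2 units (points) with its 95% interval (bars), for Pan02OE (left) and labelled Pan02KD (right); red, higher and blue, lower at an adjusted p under 0.05. In Pan02OE 19 points are blue and 2 red; in labelled Pan02KD 10 are red and 5 blue.

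The same question was asked of labelled Pan02KD and Pan02KD-CTL, with a limit. *Nlrx1* was not lower in the arrays so labelled, and its signal, in the background range, gives no measure of a knockdown. Of the 52 members 10 rose (19.2%) and 5 fell (9.62%), as compared to 7.59% and 5.97% of all genes (13.6% together), and to 14.3% and 11.3% of the bright ones. The median difference of the members was 0.21, against 0.00 over all genes. After cyclic loess normalization the split was 7 higher and 6 lower. Both labelled Pan02KD arrays lay above both Pan02KD-CTL arrays in 24 of 52 members (46.2%, against 26.5% of all genes and 37.1% of the bright ones) and below them in 11 (21.2%, against 24.6% and 30.0%). Among ductal epithelial markers 1 rose and 2 fell in the same arrays. Of 7 fibroblast and mesenchymal markers 1 rose, *Dcn*, and 1 fell, *Pdgfrb*. The part of these markers in the result was not tested.

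Higher in labelled Pan02KD were cyclin D3, p27 and cyclin B2. *Ccnd3* read 13.68 and 13.49 in labelled Pan02KD, against 12.11 and 12.13 in Pan02KD-CTL (difference 1.46 ± 0.15, adjusted p = 0.00033). *Cdkn1b* read 13.13 and 13.00 in labelled Pan02KD, against 11.93 and 11.73 in Pan02KD-CTL (difference 1.23 ± 0.16, adjusted p = 0.0013). These 2 calls held under each of the 18 alternatives, and a driver of G1 and an inhibitor of its kinases were thus higher in the same arrays. *Ccnb2* read 11.71 and 11.60 in labelled Pan02KD, against 10.84 and 9.69 in Pan02KD-CTL (difference 1.39 ± 0.26, adjusted p = 0.0076). Most of that gap came from the normal medium arrays (1.90, as compared to 0.87 in H2O2), and without the labelled Pan02KD array in normal medium the adjusted p was 0.084.

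Also higher were *E2f2*, an activating E2F (0.93), *Cdc20* (0.75), *Cdk6* (0.74), *E2f7* (0.67), *Rb1* (0.65), *Cdc25b* (0.62) and *Tyms* (0.57), each of which lost its call when at least 1 array was left out. With all arrays kept, *Rb1*, *Cdc25b* and *Tyms* also lost theirs after cyclic loess and after quantile normalization, and *E2f2* without the medium term. In all, *Rb1* lost its call in 10 of 18 alternatives and *Tyms* in 11 of 18. *Cdk6* read 15.55 and 15.60 in labelled Pan02KD, against 14.79 and 14.88 in Pan02KD-CTL. *E2f7* read 9.78 and 9.92 in labelled Pan02KD, against 9.16 and 9.20 in Pan02KD-CTL. *Tyms* read 11.18 and 11.07 in labelled Pan02KD, against 10.71 and 10.41 in Pan02KD-CTL. For these 3 genes the pair of arrays of a line lay closer together than the lines did.

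Genes of replication made up 4 of the 5 that fell. *Mcm3* read 10.53 and 10.75 in labelled Pan02KD, against 11.83 and 11.57 in Pan02KD-CTL (difference -1.07 ± 0.18, adjusted p = 0.0038), and lost its call without the labelled Pan02KD array in H2O2 (adjusted p = 0.064). *Cdt1* read 12.02 and 11.81 in labelled Pan02KD, against 12.78 and 12.97 in Pan02KD-CTL (difference -0.96 ± 0.16, adjusted p = 0.0043), and lost its call without the labelled Pan02KD array in normal medium (adjusted p = 0.06). *Rrm2* (-0.69) and *Rrm1* (-0.64), the reductase subunits, and the kinase *Aurka* (-0.61) were the others. Each of them lost its call when at least 1 array was left out, and *Rrm2* also after quantile normalization. *Mcm6* read 9.69 and 9.13 in labelled Pan02KD, against 9.22 and 8.97 in Pan02KD-CTL, where the pairs overlapped. *Pcna* read 14.96 and 14.88 in labelled Pan02KD, against 15.40 and 15.26 in Pan02KD-CTL (difference -0.41 ± 0.15, adjusted p = 0.12).

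Mitotic genes other than *Ccnb2*, *Cdc20* and *Cdc25b* did not pass the test as higher. *Mki67* read 14.48 and 14.38 in labelled Pan02KD, against 14.08 and 13.74 in Pan02KD-CTL (difference 0.52 ± 0.16, adjusted p = 0.062). *Aurkb* read 12.22 and 12.30 in labelled Pan02KD, against 12.34 and 11.54 in Pan02KD-CTL, and the pairs overlapped. *Cdk1* read 11.90 and 11.81 in labelled Pan02KD, against 12.24 and 11.83 in Pan02KD-CTL. *Bub1* read 11.09 and 11.08 in labelled Pan02KD, against 12.14 and 11.32 in Pan02KD-CTL (difference -0.64 ± 0.20, adjusted p = 0.063). *Ttk* read 8.81 and 8.57 in labelled Pan02KD, against 8.56 and 7.68 in Pan02KD-CTL (difference 0.57 ± 0.19, adjusted p = 0.084). *Cenpf* (7.28 and 7.45, against 7.27 and 6.94 in Pan02KD-CTL) and *E2f1* (6.40 and 6.28, against 6.12 and 6.43 in Pan02KD-CTL) stayed in the background range. The 7 spindle and chromosome genes all had positive differences (0.15 to 0.69), of which 0 passed the test. Left out in turn, the 4 arrays of this comparison gave 4 calls (without labelled Pan02KD in normal medium), 5 (without labelled Pan02KD in H2O2) and 9 (without either Pan02KD-CTL array) in place of 15.

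In all 8 members (15.4%) were called in both comparisons, which share no array, as compared to 7.63% of all genes and 15.1% of the bright ones. In each of the 8 the directions were opposed, as they were in 95.4% of all genes called in both (7.28% of all genes). *Cdt1* was higher in Pan02OE and lower in labelled Pan02KD. *Ccnb2*, *Ccnd3*, *Cdc25b*, *Cdk6*, *Cdkn1b*, *E2f7* and *Tyms* were lower in Pan02OE and higher in labelled Pan02KD. Of these 8 calls in labelled Pan02KD, those of *Ccnd3* and *Cdkn1b* held under every alternative. The Pan02OE call of *Cdkn1b* did not, so that of the 8 only *Ccnd3* held throughout in both comparisons. Of the other members 13 were called in Pan02OE alone, 7 in labelled Pan02KD alone and 24 in neither. The difference between the comparisons was itself tested, as the Pan02OE difference minus the labelled Pan02KD difference: 23 members were lower and 2 higher, *Cdt1* (1.63 ± 0.23, adjusted p = 0.00076) and *Mcm3* (0.87 ± 0.25, adjusted p = 0.033), as compared to 12.3% and 9.99% of all genes (22.3% together) and to 22.4% and 18.1% of the bright ones. The difference of *Ccnb2* was -3.32 ± 0.37 (adjusted p = 0.00021), that of *Ccnd3* -2.88 ± 0.21 (adjusted p = 1.7e-05) and that of *Mki67* -2.28 ± 0.22 (adjusted p = 9.6e-05). Calls of 15 of these 25 members held under every alternative run for them (16 for *E2f1* and 17 for the others), with the limit given above for *Cenpf*.

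**Figure D3:**
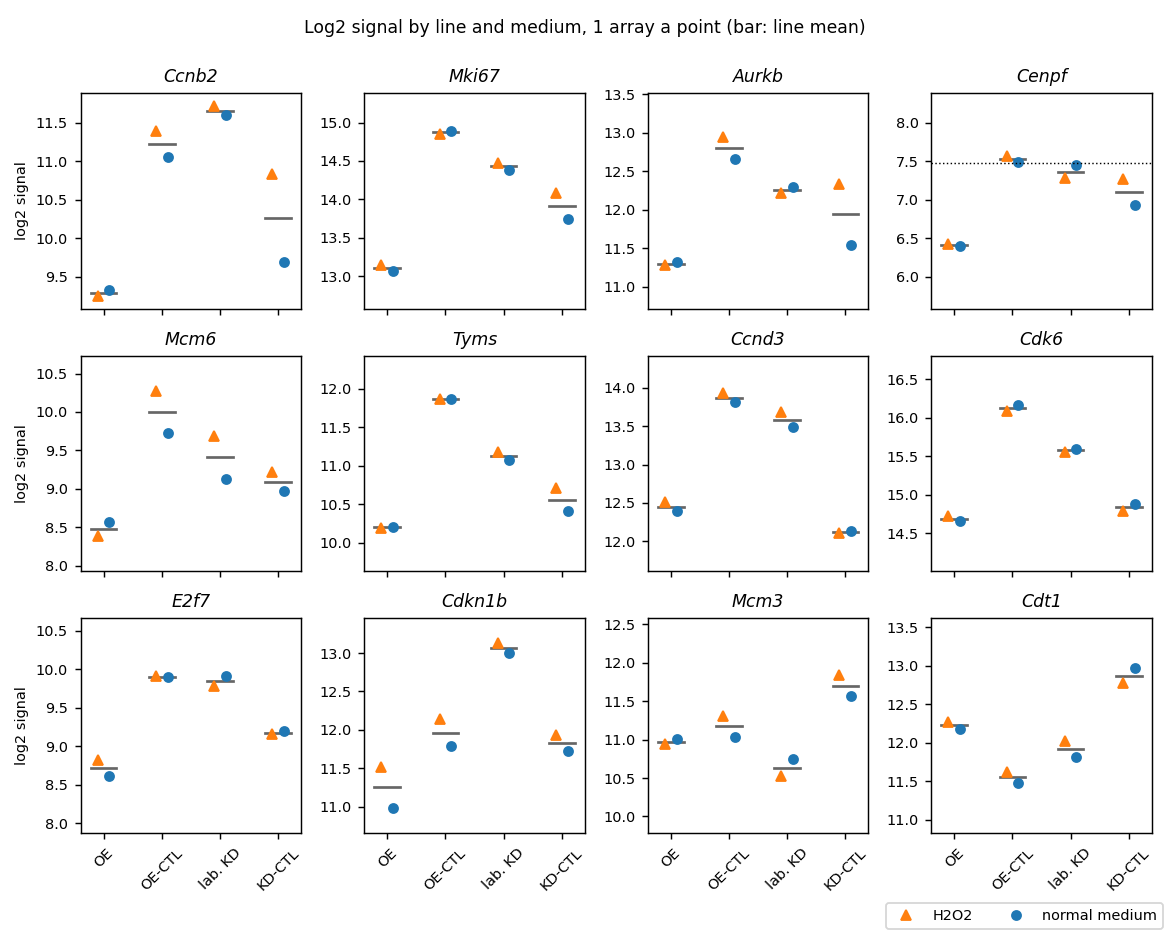
Log2 signal (y) of 12 members in each line (x: OE, Pan02OE; OE-CTL, Pan02OE-CTL; lab. KD, labelled Pan02KD; KD-CTL, Pan02KD-CTL), with H2O2 as triangles, normal medium as circles and the line mean as a bar; each panel spans at least 2.8 log2 units and the dotted line is the brightest background probe set. *Ccnd3* is low in Pan02OE (12.51 and 12.39) and Pan02KD-CTL (12.11 and 12.13) and high in the other 2 lines.

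The control lines differed from each other as well, so each comparison above depends on its own control. The comparison of Pan02KD-CTL with Pan02OE-CTL uses the control arrays of both. It gave 5 members that were higher (9.62%) and 13 that were lower (25.0%) in Pan02KD-CTL, as compared to 7.64% and 9.28% of all genes (16.9% together). Among the bright genes 13.8% were higher and 17.3% lower, so that the share of members called (34.6%) was close to theirs (31.1%). After quantile normalization the split was 8 higher and 12 lower. *Ccnd3* differed by -1.75 ± 0.15 (12.11 and 12.13 in Pan02KD-CTL, against 13.92 and 13.81 in Pan02OE-CTL), which is larger in size than either of its own-control differences. *Tyms* (-1.31), *Cdk6* (-1.29), *E2f8*, a repressing E2F (-1.10), *Mki67* (-0.96) and *Ccnb2* (-0.96) were lower in Pan02KD-CTL too. *Cdt1* (1.32), *Rrm2* (0.97), *Ccne1*, cyclin E1 (0.83), *Rrm1* (0.65) and *Mcm2* (0.53) were higher there. Of the 18 calls 7 held under every alternative, those of *Ccnd3*, *Cdk2*, *Cdk6*, *Cdt1*, *E2f8*, *Mki67* and *Tyms*. The calls of *Ccnb2*, *Rrm2*, *Ccne1*, *Rrm1* and *Mcm2* did not. *Ccnb2* lost its call after cyclic loess normalization, among others, and *Mcm2* in 11 of 18 alternatives, centering among them. Without the Pan02OE-CTL array in H2O2, 8 calls were left.

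Over the 4 lines, Pan02OE had the lowest line mean in 34 of 52 members (65.4%), as compared to 23.6% of all genes and 25.8% of the bright ones. Among the 22 mitotic members it was lowest in 18 (81.8%) and highest in 0. The highest means were spread over Pan02OE-CTL (21 members), Pan02KD-CTL (16) and labelled Pan02KD (14), with 1 in Pan02OE. For *Mki67* the order from low to high was Pan02OE (13.11), Pan02KD-CTL (13.91), labelled Pan02KD (14.43) and Pan02OE-CTL (14.87), where the step between Pan02KD-CTL and labelled Pan02KD did not pass the test and the other steps were not tested. For *Cdk1* the order was Pan02OE-CTL (11.55), labelled Pan02KD (11.86), Pan02OE (11.98) and Pan02KD-CTL (12.04), and none of the tested pairs passed.

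H2O2 for 24 hours changed no member at the threshold when the 4 H2O2 arrays were compared with the 4 in normal medium, and called 0% of all genes. With a trended, robust variance fit 0 members and 2 genes were called. An unadjusted p under 0.05 was found for 4 of the 52 members and 1231 of the 19505 genes, which are similar shares. The members at that level were *E2f2* (-0.49 ± 0.14), *Ttk* (0.49 ± 0.13), *Bub1* (0.42 ± 0.14) and *Cdkn1b* (0.30 ± 0.12), each with an adjusted p of 0.74. *E2f2* read 8.94, 9.24, 8.74 and 8.04 in H2O2, against 9.25, 9.43, 9.69 and 8.53 in normal medium, for Pan02OE, Pan02OE-CTL, labelled Pan02KD and Pan02KD-CTL in this order. It was thus lower in H2O2 in each of the 4 lines, and *Ttk*, *Bub1* and *Cdkn1b* were higher in each (*Bub1* by only 0.014 in labelled Pan02KD). Because these 4 genes were picked by a low p over the same arrays, their shared directions give no further support. Positive differences were found in 39 of 52 members (75%), as compared to 49.9% of all genes and 46.2% of the bright ones. Their median was 0.09 over the members, against 0.00 over all genes. The direction turned in at least 1 alternative for 25 of the 52 members.

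**Figure D4:**
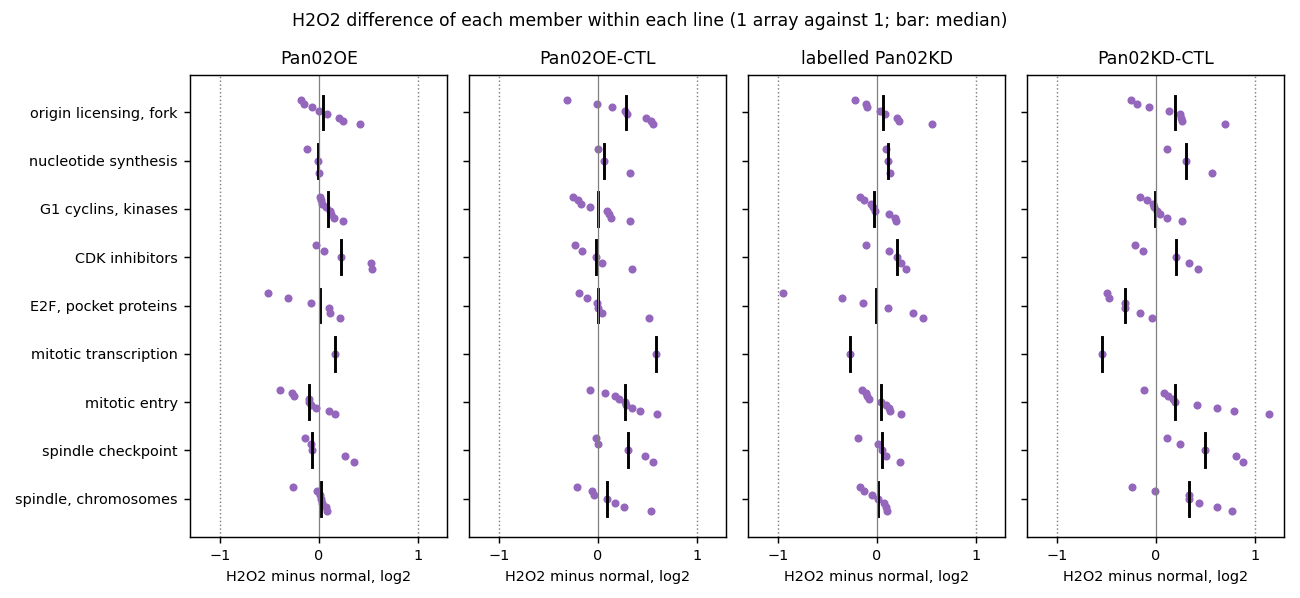
Difference of the H2O2 array minus the normal array (x, log2 units; dotted lines, 2-fold) for each measured member (points) by role (y), 1 panel per line; black bars are group medians. In Pan02KD-CTL the spindle checkpoint (median 0.50) lies to the right and the E2F and pocket genes (median -0.31) to the left of 0; in the other lines the group medians with more than 1 gene lie between -0.10 and 0.31.

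Within single lines, with 1 array against 1 and hence no test, only *Ccnb2* in Pan02KD-CTL passed 2-fold (10.84 in H2O2, against 9.69 in normal medium). Over all genes 0.231% passed 2-fold in Pan02OE, 0.169% in Pan02OE-CTL, 0.256% in labelled Pan02KD and 1.39% in Pan02KD-CTL. In that line *Ttk* read 8.56 in H2O2, against 7.68 in normal medium, *Bub1* 12.14 against 11.32, and *Aurkb* 12.34 against 11.54. All 5 measured checkpoint genes were higher in H2O2 there (median 0.50) and all 6 E2F and pocket genes lower (median -0.31), while 50.2% of all genes were higher. The checkpoint median was 0.31 in Pan02OE-CTL, 0.05 in labelled Pan02KD and -0.07 in Pan02OE. *Ccnb2* differed by -0.08 in Pan02OE, 0.34 in Pan02OE-CTL and 0.12 in labelled Pan02KD. Of 6 ductal epithelial markers 5 were lower in H2O2 in Pan02KD-CTL (median -0.34), and their part in these values was not tested.

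Whether the H2O2 difference of one line departs from that of the other 3 was tested for each line in turn. In Pan02KD-CTL 0 members and 0.0103% of all genes were called. An unadjusted p under 0.05 was found for 6 of the 52 members and 2001 of the 19505 genes, which are similar shares. The 6 members were *Ccnb2* (1.02), *Cenpe* (0.85), *Plk1* (0.81), *Aurkb* (0.74), *Kif23* (0.70) and *Rrm2* (0.55). Their adjusted p-values lay between 0.34 and 0.48. In Pan02OE, Pan02OE-CTL and labelled Pan02KD there were 1, 3 and 0 members at an unadjusted p under 0.05, against 839, 738 and 672 of all genes. In these lines 0 were called, over members and over all genes. No member thus passed the test of a line-specific H2O2 difference.

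Other genes of the cycle, 159 measured in 5 lists of origin and fork, G1/S control, centromere and kinetochore, spindle and cytokinesis, and condensin and anaphase-promoting complex genes, were set beside the members. In Pan02OE 45 of them fell (28.3%, against 17.2% of the bright genes) and 7 rose (4.40%, against 13.2%), with a median of -0.32. In labelled Pan02KD 22 rose (13.8%) and 15 fell (9.43%), with a median of 0.06, which is about what the bright genes gave (14.3% and 11.3%). Spindle and cytokinesis genes gave 11 lower (33.3%) and 0 higher of 33 in Pan02OE, and centromere and kinetochore genes 12 lower (36.4%) and 1 higher of 33. *Melk*, a mitotic kinase, read 6.36 and 6.28 in Pan02OE, against 8.41 and 8.33 in Pan02OE-CTL, and 8.48 and 8.45 in labelled Pan02KD, against 7.40 and 6.58 in Pan02KD-CTL. It passed the test in Pan02OE (adjusted p = 0.00021) and in labelled Pan02KD (adjusted p = 0.0019), but the Pan02OE and Pan02KD-CTL values are in the background range and no fold is given. *Ndc80*, the outer kinetochore protein that grips microtubules, fell by 1.53 ± 0.22 in Pan02OE (adjusted p = 0.0013). *Kif20a*, a motor of cytokinesis, fell by 1.49 ± 0.27 in Pan02OE (adjusted p = 0.0048), and the condensin subunit *Ncapd3* by 1.19 ± 0.22 (adjusted p = 0.0056).

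Origin and fork genes gave 13 lower (32.5%) and 2 higher (5.00%) of 40 in Pan02OE. *Uhrf1*, which guides maintenance DNA methylation at the fork, fell by 1.37 ± 0.18 (adjusted p = 0.00081). *Gins1*, a subunit of the replicative helicase, was lower in both modified lines (6.61 and 5.76 in Pan02OE, against 7.62 and 7.48 in Pan02OE-CTL, and 6.53 and 6.73 in labelled Pan02KD, against 7.72 and 7.79 in Pan02KD-CTL), and both modified lines were in the background range. G1/S control gave 4 lower (17.4%) and 2 higher (8.70%) of 23 in Pan02OE, as compared to 17.2% and 13.2% of the bright genes. The pocket protein *Rbl2*, p130, read 9.16 and 8.58 in Pan02OE, against 9.73 and 9.96 in Pan02OE-CTL (difference -0.97 ± 0.23, adjusted p = 0.016), and 10.07 and 10.02 in labelled Pan02KD, against 9.14 and 8.50 in Pan02KD-CTL (difference 1.23 ± 0.23, adjusted p = 0.0067). *Cdkn2d*, which encodes the INK4 inhibitor p19, went the same ways, at -1.02 ± 0.19 in Pan02OE (adjusted p = 0.0057) and 1.22 ± 0.19 in labelled Pan02KD (adjusted p = 0.0029). *E2f5*, an E2F of the same list, had line means that differed in the opposite directions, and no test result is given for it here. Its line mean was 11.08 in Pan02OE, against 9.95 in Pan02OE-CTL. It was 10.26 in labelled Pan02KD, against 10.72 in Pan02KD-CTL.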

How the data were processed

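Clariom S arrays of 8 samples were analysed; the column of the manufacturer's control RNA held 0 values and was not used. The deposited values are log2 signals made by the authors with the Transcriptome Analysis Console, whose version, summarization and normalization are not given in the sources used here. Medians of the arrays over genes were 6.51 to 6.58, and no further normalization was applied. Of 22206 gene probe sets 19572 had 1 symbol, 0 several and 2634 none. The probe set with the highest mean represented each of 19505 genes. Line and medium were fitted as additive terms over 8 arrays with limma 3.58.1 in R 4.3.3 (3 residual degrees of freedom), with Benjamini-Hochberg adjustment over all 19505 genes and calls at an adjusted p under 0.05. The H2O2 difference of 1 line against the others was an added interaction term (2 residual degrees of freedom). The number of arrays limits the precision. The fit was tested on simulated data. The members, the lists and the motifs were chosen with earlier results of these data known. Array values are printed for the 12 called members with the largest own-control differences, the 4 with the largest H2O2 differences over all lines and in Pan02KD-CTL, and usual reference genes of the cycle; *Cdt1*, given for its opposed calls, was chosen after its values were seen. Other genes of the cycle are the 3 of each list with the largest differences, of which some are named. Alternatives were centering, cyclic loess, quantile normalization, filters on dim genes, probe set choice, variance moderation, model terms and leaving out each array.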

Additional observations from a re-analysis of the deposited data

How the results depend on the processing

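Outside the settings that leave out an array, the counts of called members stayed within 1.5 times of those reported. With each array left out in turn the count for Pan02OE against Pan02OE-CTL was 11 to 23, for labelled Pan02KD against Pan02KD-CTL 4 to 13, for the difference between these comparisons 17 to 26, and for Pan02KD-CTL against Pan02OE-CTL 8 to 18. Those without 1 of a pair leave a line with 1 array, which is assumed to vary like the other lines. Of the called members 0 turned their direction in any alternative, whereas of those not called 9 of 31 did for Pan02OE against Pan02OE-CTL and 11 of 37 for labelled Pan02KD against Pan02KD-CTL. For H2O2 against normal medium, 25 of 52 members turned their direction. H2O2 against normal medium gave 0 called members in every alternative, and over all genes 2 calls with trended, robust moderation and 1 call without either Pan02KD-CTL array. The medium term compares lines within each medium, and without it 20 members were called for Pan02OE and 14 for labelled Pan02KD. The labels give no replicate numbers to pair by. Signal near the background probe sets limits *E2f1*, *Cenpf*, *Cdc6*, *Cdkn1c*, *Cdkn2a* and *Cdkn2b*.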

Other observations

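Values of other cycle genes in Pan02KD-CTL under H2O2 are given as a description, since 0 of the members and 0 of the 159 other cycle genes were called for an H2O2 difference particular to that line. Of 33 other spindle and cytokinesis genes 30 were higher in H2O2 than in normal medium in that line (90.9%, median 0.42), as compared to 50.2% of all genes, whereas of 40 origin and fork genes 16 were higher (median -0.08). *Ndc80* read 10.09 in H2O2, against 8.97 in normal medium, and *Kif20a* 11.52 against 10.43, both past 2-fold. In labelled Pan02KD 13 of the 33 spindle genes were higher in H2O2 (median -0.06), in Pan02OE 21 (median 0.05) and in Pan02OE-CTL 22 (median 0.10). These are differences of 1 array from 1 array, and no test within a line is possible.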
